A study of Mus musculus with 6 samples.

Results

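Proteasome subunit genes were examined in intestinal tumor-derived organoids, which are cultures of tumor epithelial cells grown in a gel, from mice of 3 Trp53 genotypes. The genes were taken by name from the deposited expression table: gene symbols that begin with Psma, Psmb, Psmc or Psmd and a digit, without pseudogenes and without the interferon-inducible subunits Psmb8, Psmb9 and Psmb10. This gave 37 names, of which 35 reached 4 rpkm (reads divided by transcript length and by library size) in at least 1 of 6 libraries, among 10042 genes of the table that did so. The other 2 names, the testis subunit Psma8 and the thymus subunit Psmb11, stood at the table's lowest value of 1 rpkm in every library. The 35 genes were 14 core subunits (7 of the alpha ring and 7 of the beta ring), 17 regulatory subunits (6 ATPases, 3 other base subunits and 8 lid subunits), 3 assembly chaperones and Psmc3ip. Psmc3ip has the right prefix but encodes a recombination factor of meiosis and no proteasome subunit, so it is described apart.

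All organoids came from small-intestinal tumors of C57BL/6 mice aged 15 to 20 weeks that carry the ApcΔ716 allele, whose tumors lose the wild-type Apc copy, so every group shares Apc loss. The 3 groups, each of 2 organoid preparations, came from different mice: Trp53 +/+, Trp53 flox/flox or Trp53 R270H/R270H. Whether the 2 preparations of a group came from the same mouse is not given in the sample titles or the study's methods. The flox allele is the R270H allele behind an unrecombined stop cassette and is null for p53. In Trp53 R270H/R270H the cassette was removed by tamoxifen through villin-CreER, which acts in intestinal epithelium, so that both alleles express a missense p53. The study's methods describe tamoxifen for this group and not for the other groups, so missense p53 and the treatment cannot be told apart. Trp53 RNA was 75.1±1.1 rpkm in +/+, 2.11±0.529 in flox/flox and 77.7±7.0 in R270H/R270H (mean±s.d., n=2), in the order the labels give.

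The proteasome is the protease complex that degrades ubiquitin-tagged proteins in the cytosol and nucleus. Its core particle is a barrel of alpha and beta rings whose inner chamber holds the catalytic beta subunits, and its regulatory particle has a base, with a ring of ATPases that unfolds the substrate, and a lid that removes the ubiquitin chain. Subunit genes are known to be raised together by the transcription factor Nfe2l1 when proteasome activity falls short, and they have been described as targets of missense p53 in human tumor cells. The comparisons below therefore ask whether core and regulatory subunits differed between mutant, null and wild-type p53.

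Short sequences before the transcription starts are shown because the antioxidant response element, which Nfe2l1 and its relative Nfe2l2 bind together with small Maf proteins, is a well known shared element of these genes. RefSeq promoters (GRCm38.p6, the build of mm10) were matched for 29 of the 35 genes, with 31 promoters in all; Psmb1, Psmb2, Psmb7, Psmc3, Psmd3 and Psmd7 had none. The core of that element, TGANNNNGC on either strand, lay within the 60 bases before the start in 6 of 31 promoters (19.4%), against 9.5% of all 32851 promoters and 10.4% of the 9419 promoters of genes tested here. The 6 genes were Psmb3, Psmb5, Psmb6, Psmd9, Psmd12 and Psmc3ip. In the windows below, the core is in capitals and the strand is that of the gene. The first 5 are the subunits and the chaperone with a match. The last 2, Psmb4 and Psmd8, hold no match in this window. They were called between R270H/R270H and flox/flox by limma over all 6 libraries.
Psmb5, chr14:54617996-54618055, minus strand: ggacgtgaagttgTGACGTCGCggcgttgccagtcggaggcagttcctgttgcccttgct
Psmb6, chr11:70525297-70525356, plus strand: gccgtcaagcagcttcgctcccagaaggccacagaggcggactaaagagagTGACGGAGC
Psmb3, chr11:97703374-97703433, plus strand: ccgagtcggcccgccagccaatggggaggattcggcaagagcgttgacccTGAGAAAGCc
Psmd12, chr11:107479468-107479527, plus strand: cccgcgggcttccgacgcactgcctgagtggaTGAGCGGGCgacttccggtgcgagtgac
Psmd9, chr5:123228130-123228189, plus strand: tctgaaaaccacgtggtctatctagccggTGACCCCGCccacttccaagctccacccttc
Psmb4, chr3:94886959-94887018, minus strand: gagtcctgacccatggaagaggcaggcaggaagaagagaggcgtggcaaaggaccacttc
Psmd8, chr7:29180674-29180733, minus strand: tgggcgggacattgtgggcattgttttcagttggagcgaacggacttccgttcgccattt

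The catalytic subunits Psmb5 and Psmb6 thus both carry the core of the element, at different distances from the start used here. For Psmb6 this start lies after the first base of the annotated gene (chr11:70525324), so the match falls inside the gene. Over the whole promoter, from 250 bases before to 50 after the start, the same core was found in 18 of 31 promoters (58.1%), against 41.3% of all promoters and 43.4% of those of genes tested. Psmb4 and Psmd8, without a match in the 60-base window, were among the genes with this core in the whole promoter. The letters CTTCCG, the reverse complement of the center of binding sites of ETS factors, were searched on both strands after the windows had been read. They were present in 19 of 31 whole promoters (61.3%), against 16.9% of all and 32.7% of the promoters of genes tested, and in the 60-base window in 9 of 31 (29.0%), against 5.95% and 12.5%. Psmd8 and Psmd12 above are among these 9. The letters CCAAT, the NF-Y site, were about as frequent in the whole promoters as elsewhere (12 of 31, 38.7%, against 37.4% of all). In the 60-base window CCAAT was found in 6 of 31 (19.4%), against 10.8% of all and 14.2% of the promoters of genes tested. A match of letters is a description and not evidence of binding.

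Proteasome subunit genes were among the more highly expressed genes of these organoids. In the Trp53 +/+ libraries 30 of the 31 subunits stood at or above the percentile 80.6 of all genes tested, from Psma2 at 176±4.68 rpkm (percentile 97.2) to Psmb7 at 37.5±0.496. The exception was the lid subunit Psmd11 at 19.4±0.0635 rpkm (percentile 62.9). The assembly chaperones were lower, with Psmd5 at 34.9±0.641, Psmd10 at 14.2±0.451 and Psmd9 at 8.16±0.232 rpkm. All 35 genes together took 0.716% and 0.720% of the summed rpkm of the table in the +/+ libraries, 0.881% and 0.795% in flox/flox, and 0.833% and 0.806% in R270H/R270H.

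**Figure D1:**
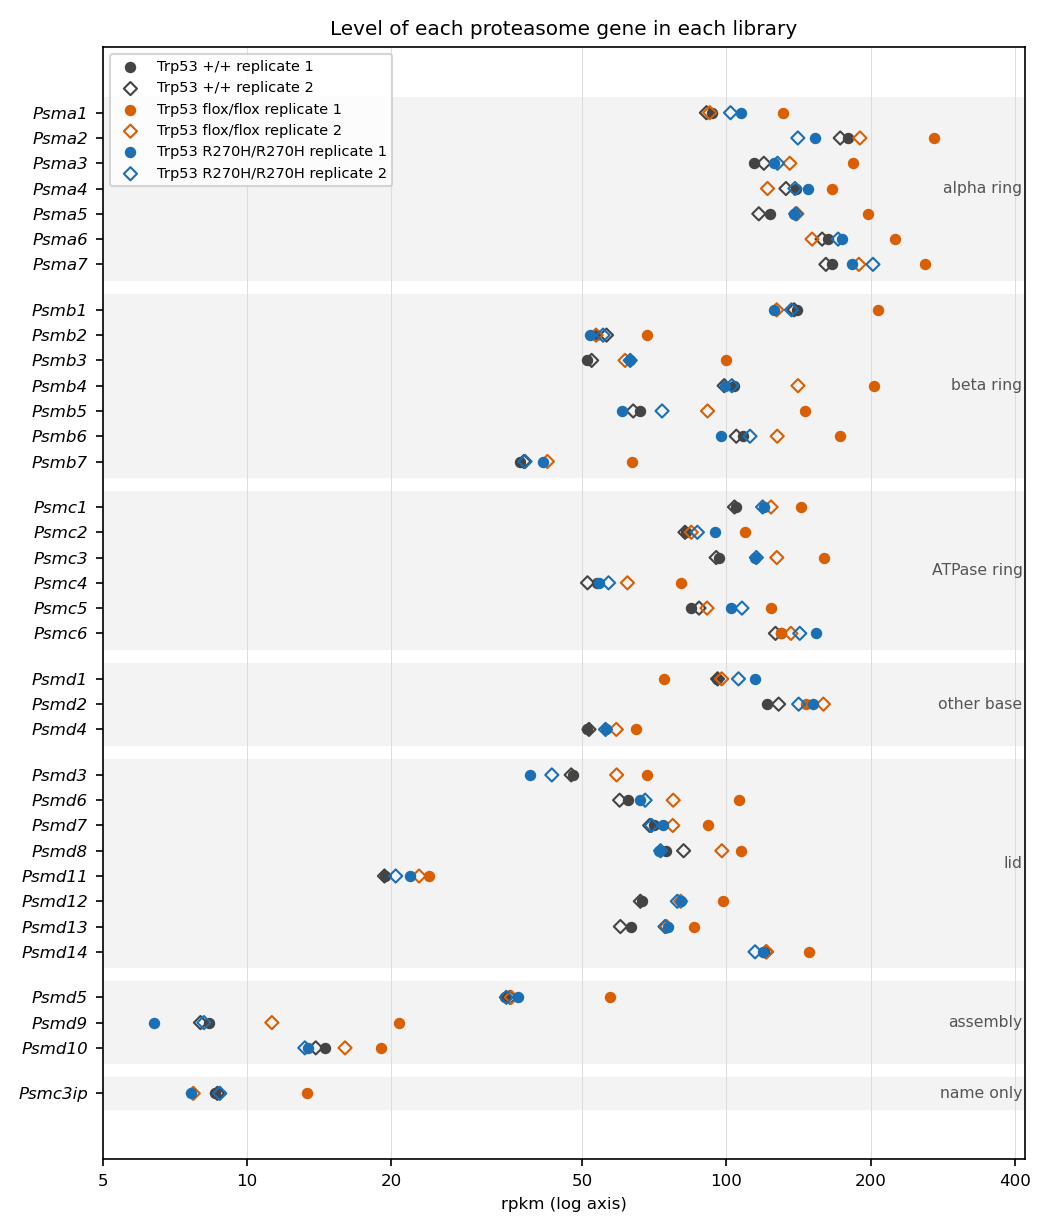
Level of each of the 35 genes in each of the 6 libraries, in rpkm on a log axis, with genes grouped by their place in the proteasome. Filled circles are replicate 1 and open diamonds replicate 2 of a genotype. Trp53 flox/flox replicate 1 (filled orange) is the highest library for 32 of the 35 genes.

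Within a ring the subunits were not at equal RNA levels, although the assembled particle holds them in equal numbers. The alpha ring was the most even, with a ratio of highest to lowest member between 1.70 and 2.07 over the 6 libraries, followed by the ATPase ring (1.99 to 2.85) and the beta ring (3.04 to 3.78), except that in flox/flox replicate 1 the ATPase ring (1.99) was more even than the alpha ring (2.07). The lid was the least even (5.31 to 6.26), between Psmd14, the deubiquitinase, and Psmd11. Psmd14 was at 120 rpkm and Psmd11 at 19.4 rpkm on average in +/+. The lowest member of a ring was the same gene in all 6 libraries for the alpha ring (Psma1), the beta ring (Psmb7), the ATPase ring (Psmc4) and the lid (Psmd11).

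Before the comparisons, one library has to be set apart. Between the replicates of Trp53 flox/flox, replicate 1 was higher for 32 of 35 genes, with a median log2 difference of 0.43 in rpkm+1, while the median over all 10042 genes was 0.0. The difference was 0.51 for core subunits, of which all 14 were higher, and 0.21 for regulatory subunits, of which 14 of 17 were higher. In the other genotypes the same median over the 35 genes was 0.02 (+/+) and 0.00 (R270H/R270H). The replicate difference in flox/flox moved with transcript length over 9228 genes with a known longest transcript: the median was 0.56 for transcripts under 1000 nt, 0.35 from 1000 to 2000, 0.07 from 2000 to 4000, -0.21 from 4000 to 6000 and -0.56 above. Proteasome genes have short transcripts (median 1819 nt, against 3341 nt for all genes tested), and core subunits shorter ones (1220 nt) than regulatory subunits (1983 nt). Within the class of 1000 to 2000 nt the 20 members had a median difference of 0.44 against 0.35 for all genes, and within 2000 to 4000 nt the 11 members had 0.21 against 0.07, while the 3 members under 1000 nt had 0.43 against 0.56. The 1 member from 4000 to 6000 nt, Psmd5, had 0.67 against -0.21. How much of the flox/flox values below goes with this library's length pattern was not tested, and the results are given with and without it.

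**Figure D2:**
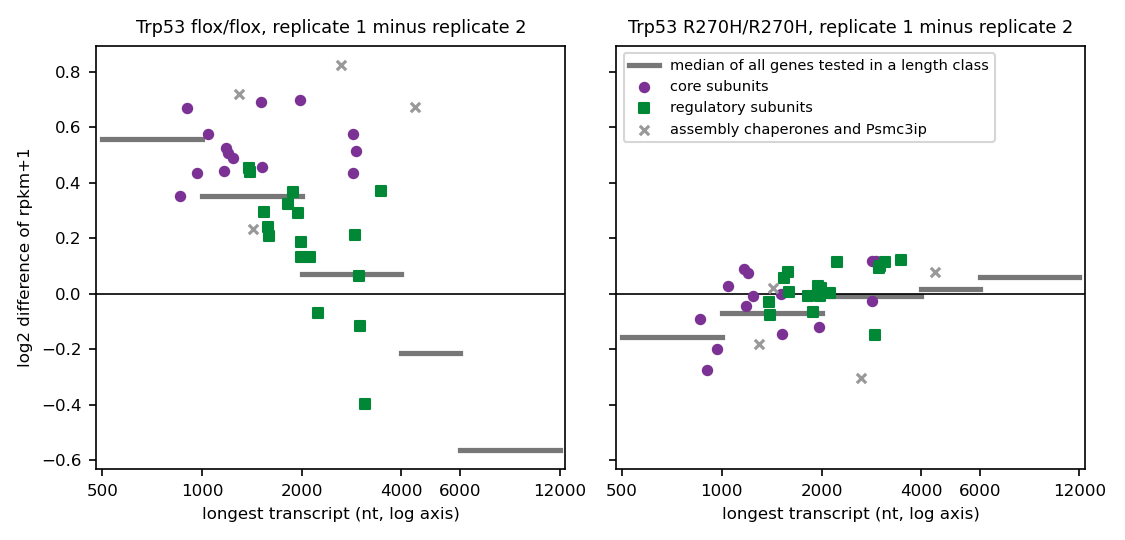
Log2 difference of rpkm+1 between replicate 1 and replicate 2 against the longest transcript of a gene (nt, log axis), for Trp53 flox/flox (left) and Trp53 R270H/R270H (right). Points are the proteasome genes, and gray bars are the median of all genes tested in a length class. In flox/flox the bars fall from 0.56 for the shortest class to -0.56 for the longest and all core subunits lie above 0, whereas in R270H/R270H the bars stay between -0.16 and 0.06.

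The other facts of the series that touch these values are few. The table holds no read counts, and the depth estimated from the steps of 1 read in short RNA genes was 44.2 to 47.3 M reads in 5 libraries and is not given for flox/flox replicate 1, where it rests on 8 genes. Epithelial markers (Epcam, Cdh1, Krt8, Krt18, Krt19 and Vil1) summed to 2181 to 4164 rpkm in every library, so the markers of the labelled tissue were present. Of 5 immune markers 4, and of 3 endothelial markers 2, were at the lowest value everywhere, and the marker sums were at most 15.1 and 11.4 rpkm. The 8 stromal markers summed to 39.4 to 78.6 rpkm in +/+ and flox/flox and to 314 and 292 rpkm in R270H/R270H, nearly all of it Vim (306 and 284 rpkm), with Col1a2 and Col3a1 at the lowest value in all 6 libraries. In flox/flox, Vim was at 71.6 and 19.8 rpkm. Acta2 was at 11.5 rpkm in flox/flox replicate 2, at 1 in replicate 1 and in +/+, and at 1.53 and 1.59 in R270H/R270H. Col1a1, Dcn, Pdgfra and Pdgfrb were above the lowest value only in flox/flox replicate 2 (1.05 to 2.44 rpkm). In bulk RNA fewer cells of a type and less RNA per cell cannot be told apart. The part of these markers in the results was not tested.

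Missense against wild-type p53 gave small differences that pointed upward in the base of the regulatory particle. Both R270H/R270H libraries lay above both +/+ libraries for all 6 ATPases and all 3 other base subunits, for 5 of 7 alpha and 2 of 7 beta subunits, and for 4 of 8 lid subunits. That made 20 of 35 genes above and 6 below, where 44.2% of all genes tested were above and 37.6% below by the same count. The median log2 difference in rpkm+1 was 0.20 for the ATPases, 0.20 for the whole base, 0.11 for the alpha ring, 0.08 for the lid and -0.0035 for the beta ring, against 0.03 for all genes tested. Over core subunits it was 0.08 and over regulatory subunits 0.14. Over all genes this difference rose with transcript length. The median was -0.24 under 1000 nt, -0.08 from 1000 to 2000, 0.02 from 2000 to 4000, 0.10 from 4000 to 6000 and 0.15 above. The members had 0.12 in both classes from 1000 to 4000 nt. The 3 members under 1000 nt, the beta subunits Psmb2, Psmb5 and Psmb6, had -0.03. How much of the contrast between base and beta ring goes with length was not tested.

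The ATPases pull substrates into the core, and their levels in each library were as follows. Psmc5 (chr11:106256185-106263112) was at 84.6 and 87.7 rpkm in +/+, 124 and 91.2 in flox/flox, and 102 and 108 in R270H/R270H. Psmc3 (chr2:91054016-91059438) was at 96.6 and 95.3 rpkm in +/+, 159.8 and 128 in flox/flox, and 115 and 116 in R270H/R270H. Psmc6 (chr14:45329823-45349074) was at 129.9 and 127 rpkm in +/+, 130.0 and 136 in flox/flox, and 154 and 142 in R270H/R270H. Psmc5 and Psmc3 in R270H/R270H thus lay between +/+ and flox/flox replicate 1, whereas Psmc6 was one of 2 members, with Psmd1, whose R270H/R270H libraries were above all the others. Psmc1 was at 105 and 104 rpkm in +/+, 143 and 124 in flox/flox, and 119.7 and 119 in R270H/R270H. Psmc2 was at 82.4 and 82.0 rpkm in +/+, 109.6 and 84.5 in flox/flox, and 94.7 and 87.0 in R270H/R270H. Psmc4 was at 53.8 and 51.3 rpkm in +/+, 80.5 and 62.2 in flox/flox, and 54.2 and 56.8 in R270H/R270H. For Psmc4, the lowest ATPase, the gap between the +/+ and R270H/R270H libraries was smaller than the distance between the replicates of either.

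Outside the ATPase ring the base holds scaffold and ubiquitin-binding subunits. Psmd1, a scaffold of the base, was at 95.5 and 95.9 rpkm in +/+, 74.1 and 97.8 in flox/flox, and 115 and 106 in R270H/R270H. Psmd2, the other large scaffold, was at 121 and 129 rpkm in +/+, 147 and 159.5 in flox/flox, and 152 and 142 in R270H/R270H. Psmd4, a ubiquitin receptor, was at 51.2 and 51.7 rpkm in +/+, 64.7 and 59.0 in flox/flox, and 56.0 and 56.0 in R270H/R270H. All 3 had separate +/+ and R270H/R270H libraries. Of these, Psmd1 alone had its lowest value of the series in flox/flox replicate 1, and it has one of the longer transcripts among the members.

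Limma on log2(rpkm+1) over all 6 libraries, in which the 3 genotypes share 1 estimate of the spread, called 0 of 35 genes higher and 0 lower in R270H/R270H than in +/+ at an adjusted p under 0.05. It called 5.86% of all genes tested higher and 6.36% lower. At an unadjusted p under 0.05, which 32.0% of all genes tested had, there was 1 gene, the lid subunit Psmd13, at 63.3 and 60.1 rpkm in +/+ and 75.5 and 74.5 in R270H/R270H (log2 difference 0.28, SE 0.11, limma adjusted p=0.152). The shared spread is set largely by flox/flox, whose typical s.d. between replicates over these genes was 0.31 on the log2 scale, against 0.03 in +/+ and 0.06 in R270H/R270H.

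When limma was fitted to these 2 genotypes alone, 12 genes were called higher and 2 lower. The 12 were Psma1, Psma5, Psma7 and Psmb3 of the core, the ATPases Psmc1, Psmc3, Psmc5 and Psmc6, the base subunits Psmd1 and Psmd2, and the lid subunits Psmd12 and Psmd13. The 2 were Psma2 and Psmd3. These counts are 34.3% and 5.71% of the 35 genes, where the same fit called 31.2% of all genes higher and 25.7% lower, so the share of higher calls was near that of the background. By place, the higher calls were 6 of 9 base subunits, 2 of 8 lid subunits, 3 of 7 alpha subunits and 1 of 7 beta subunits, the lower calls 1 alpha and 1 lid subunit. The log2 differences of the 12 ran from 0.18 (Psma1, SE 0.05, limma adjusted p=0.0335) to 0.28 (Psmc5, SE 0.05, limma adjusted p=0.00984), that is, ratios of mean rpkm from 1.14 to 1.22. The same 14 genes were called in each of 4 fits with other treatments of the spread: the 2 genotypes alone, 1 weight per genotype, and without either flox/flox library. Psmb3 had the smallest adjusted p among them, at 51.1 and 52.4 rpkm in +/+ and 63.0 and 63.0 in R270H/R270H (log2 difference 0.28, SE 0.04, limma adjusted p=0.00636 in the fit of the 2 genotypes, 0.462 in that of all 6 libraries).

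Several subunits pointed the other way or stayed within the spread. Psma2 was at 179.5 and 173 rpkm in +/+, 272 and 190.1 in flox/flox, and 153 and 141 in R270H/R270H, the lowest log2 difference of the 35 genes (-0.26, SE 0.19). Psma7, the highest member over the 6 libraries, was at 167 and 161 rpkm in +/+, 260 and 189 in flox/flox, and 183 and 202 in R270H/R270H. The alpha ring therefore held both directions. The catalytic subunits showed little. Psmb5, the chymotrypsin-like site and the target of proteasome inhibitors such as bortezomib, was at 66.0 and 64.0 rpkm in +/+ and at 60.5 and 73.5 in R270H/R270H (log2 difference 0.04, SE 0.24). Psmb6, the caspase-like site, was at 108 and 105 rpkm in +/+ and at 97.5 and 112 in R270H/R270H (-0.03, SE 0.17). Psmb7, the trypsin-like site, was at 37.1 and 37.8 rpkm in +/+ and at 41.4 and 38.0 in R270H/R270H (0.08, SE 0.20). For Psmb5 and Psmb6 the +/+ values lay between those of the R270H/R270H replicates, and for Psmb7 the gap between the groups was smaller than that between the R270H/R270H replicates.

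**Figure D3:**
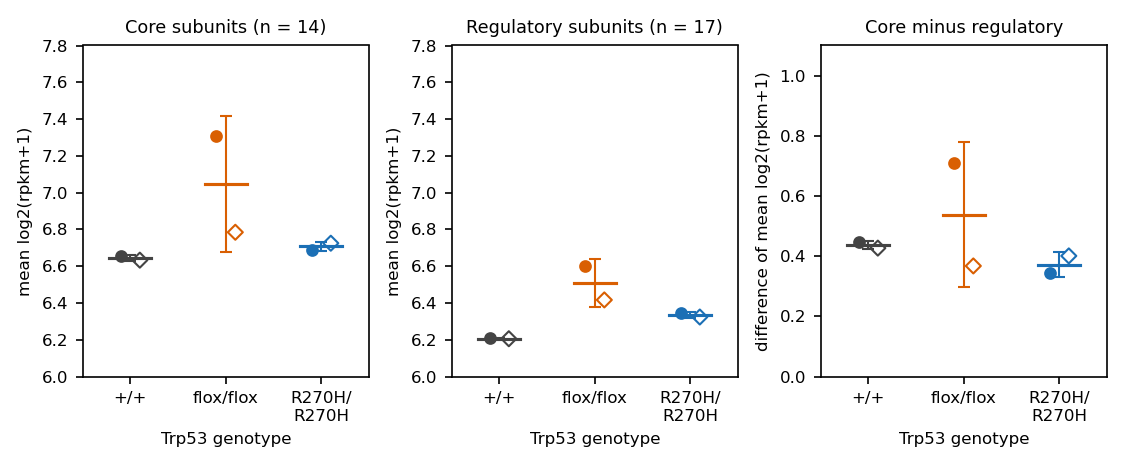
Mean log2(rpkm+1) of the 14 core subunits (left) and the 17 regulatory subunits (center) and the difference between these means (right) in each library, by Trp53 genotype. Filled circles are replicate 1, open diamonds replicate 2, lines the mean and bars the s.d. of 2 libraries. Regulatory subunits are at 6.21 in both +/+ libraries and at 6.35 and 6.32 in R270H/R270H, and core minus regulatory is 0.71 in flox/flox replicate 1 and between 0.34 and 0.45 in the other 5.

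Averaged over subunits, the core stood at 6.66 and 6.63 in +/+, 7.31 and 6.78 in flox/flox and 6.69 and 6.73 in R270H/R270H in mean log2(rpkm+1). Regulatory subunits stood at 6.21 and 6.21, 6.60 and 6.42, and 6.35 and 6.32. For both particles, in the values as deposited, the +/+ libraries were the lowest and the flox/flox libraries the highest. The balance between core and regulatory subunits in R270H/R270H, 0.34 and 0.40, was below both +/+ libraries (0.45 and 0.43), and flox/flox gave 0.71 and 0.37, on either side of them. Core transcripts are shorter than regulatory ones, and the part of transcript length in this balance was not tested.

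With all 6 libraries, null against wild-type p53 gave higher values for nearly every subunit. The log2 difference was above 0 for 34 of 35 genes, and Psmd1 was the exception at -0.17. Without flox/flox replicate 1 it was above 0 for 30 genes and below for 5. These were the core subunits Psma4, Psma6, Psmb1 and Psmb2 (-0.16, -0.09, -0.13 and -0.04) and Psmc3ip (-0.14). Of all 10042 genes tested, 4806 and 5023 were above 0 in these 2 fits. Both flox/flox libraries were above both +/+ libraries for 28 of 35 genes and below for 0, against 30.6% and 33.9% of all genes tested. All 8 lid subunits, all 6 ATPases and all 3 assembly chaperones were among the 28, with 4 of 7 alpha and 5 of 7 beta subunits. The median log2 difference was 0.43 for core and 0.30 for regulatory subunits, against -0.02 for all genes tested, 0.25 for all genes with transcripts of 1000 to 2000 nt and 0.03 for those of 2000 to 4000 nt. Members in these length classes had 0.36 and 0.29.

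Of the 5 members with the widest range over the 6 libraries, 3 were beta subunits (Psmb5, Psmb4 and Psmb3). Psmb4, a noncatalytic beta subunit, was at 104 and 99 rpkm in +/+, 203 and 141 in flox/flox, and 99.6 and 103 in R270H/R270H. Psmb5 was at 145.8 and 91.4 rpkm in flox/flox and Psmb6 at 173 and 128. Psmb3 was at 99.7 and 61.5 rpkm and Psmb7 at 63.6 and 42.3 in flox/flox. All 5 had both flox/flox libraries above both +/+ libraries. Psmb1, the highest beta subunit, was at 140.5 and 139 rpkm in +/+, 207 and 127 in flox/flox, and 126 and 137 in R270H/R270H, so its flox/flox libraries lay on both sides of the +/+ libraries. Psma1, the lowest alpha subunit, was at 93.6 and 90.9 rpkm in +/+, 131 and 92.4 in flox/flox, and 107 and 102 in R270H/R270H, with flox/flox replicate 2 within the range of +/+.

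The assembly chaperones help the base to form and leave the finished particle. Psmd9 was the member with the widest range over the 6 libraries, 1.55 on the log2 scale, at 8.32 and 8.0 rpkm in +/+, 20.7 and 11.3 in flox/flox, and 6.40 and 8.13 in R270H/R270H. Psmd5 was at 34.5 and 35.4 rpkm in +/+, 57.3 and 35.6 in flox/flox, and 36.8 and 34.8 in R270H/R270H. Psmd9 was higher in both flox/flox libraries, while Psmd5 was at the +/+ level in replicate 2.

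Limma over all 6 libraries called 0 of 35 genes higher and 0 lower in flox/flox than in +/+, against 4.38% and 6.90% of all genes tested. At an unadjusted p under 0.05 there were 18, against 34.7% of all genes tested, and the smallest adjusted p was that of Psmc3 (log2 difference 0.57, SE 0.13, limma adjusted p=0.0571). Without flox/flox replicate 1, where the lone remaining library is taken to vary like the rest, limma called 15 of 35 genes higher and 0 lower, against 19.1% and 21.3% of all genes. These were 5 of 14 core subunits (Psma3, Psma5, Psmb3, Psmb4 and Psmb5) and 10 of 17 regulatory subunits (Psmc1, Psmc3, Psmc4, Psmd2, Psmd3, Psmd4, Psmd6, Psmd8, Psmd12 and Psmd13). The median log2 difference was then 0.19 for core and 0.24 for regulatory subunits, against 0.00 for all genes tested, so the core no longer exceeded the regulatory particle. Without flox/flox replicate 2 instead, 33 genes were called higher and 1 lower, against 31.6% and 36.9% of all genes. In the fit without replicate 1, Psmb4 had a log2 difference of 0.47 (SE 0.06, limma adjusted p=0.00661), Psmc3 one of 0.41 (SE 0.05, limma adjusted p=0.00672) and Psmb5 one of 0.49 (SE 0.12, limma adjusted p=0.0346).

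**Figure D4:**
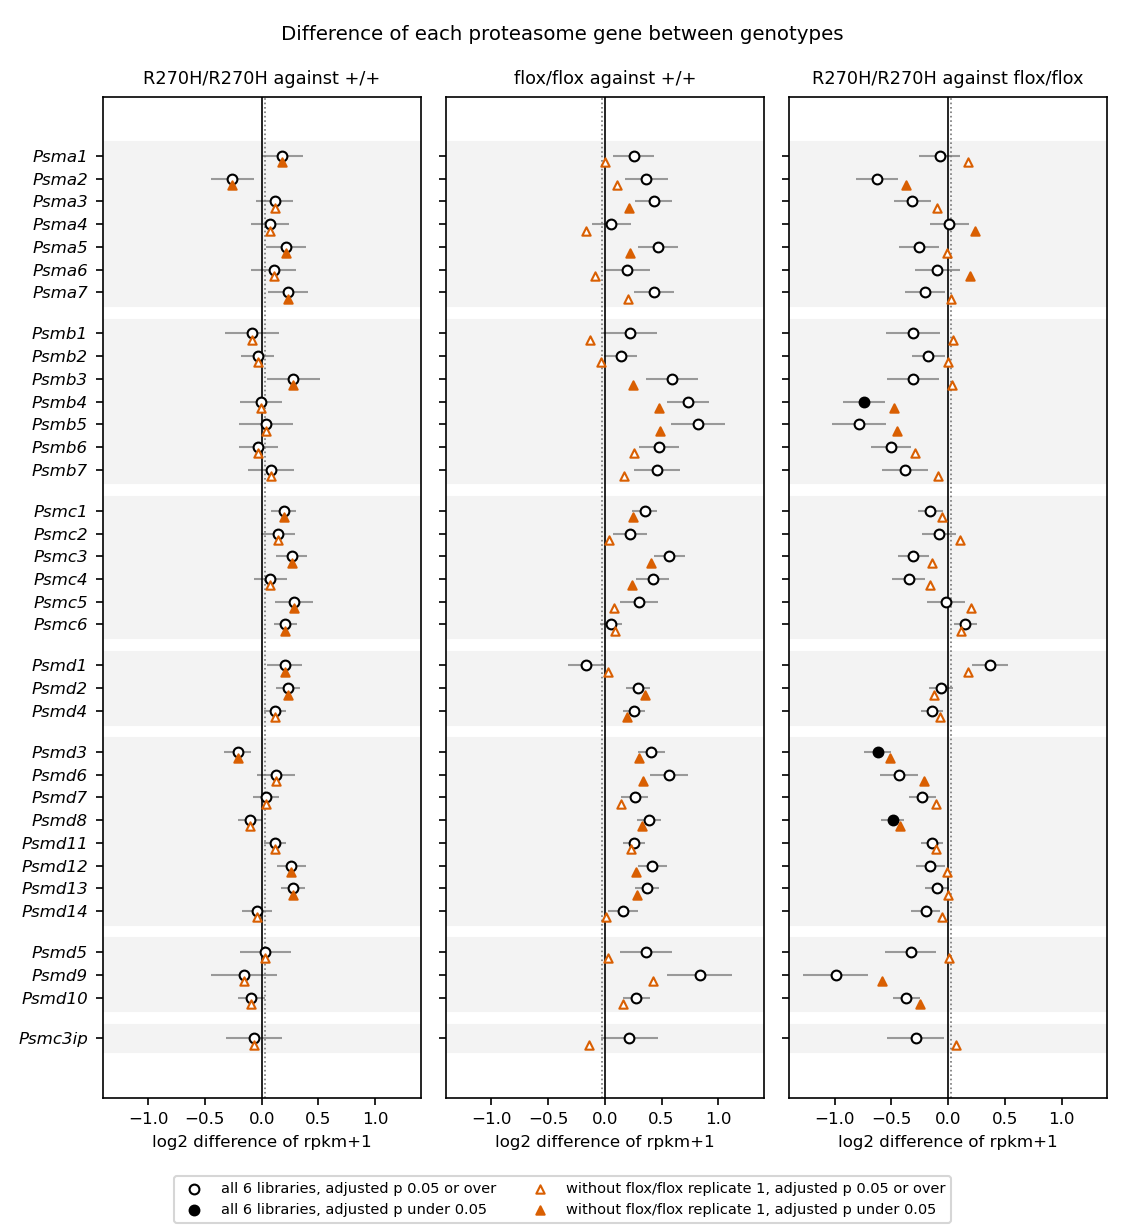
Log2 difference of rpkm+1 of each gene in the 3 comparisons. Circles with bars are limma estimates with their SE over all 6 libraries, orange triangles the estimates without Trp53 flox/flox replicate 1, filled symbols have an adjusted p under 0.05, and the dotted line is the median of all genes tested. Psmb4, Psmd3 and Psmd8 are the filled circles, all in R270H/R270H against flox/flox.

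Missense against null p53 compares organoids with and without the mutant protein, where tamoxifen is described for R270H/R270H and not for flox/flox. Limma over all 6 libraries called 3 of 35 genes lower and 0 higher, against 11.0% and 13.6% of all genes tested, so lower calls were no more frequent among the members than elsewhere. At an unadjusted p under 0.05 there were 9 genes, against 42.5% of all genes tested. Psmb4 fell by 0.74 on the log2 scale (SE 0.19, limma adjusted p=0.0438). Psmd3, a structural lid subunit (chr11:98682554-98695978), was at 47.9 and 47.5 rpkm in +/+, 68.5 and 59.1 in flox/flox, and 38.9 and 43.3 in R270H/R270H, and fell by 0.62 (SE 0.12, limma adjusted p=0.0238). Psmd8, another structural lid subunit (chr7:29174187-29180673), was at 74.8 and 81.5 rpkm in +/+, 107 and 97.9 in flox/flox, and 72.6 and 72.9 in R270H/R270H, and fell by 0.49 (SE 0.10, limma adjusted p=0.0300). For all 3 the R270H/R270H libraries were below both flox/flox libraries, and for Psmd3 and Psmd8 also below both +/+ libraries. Without flox/flox replicate 1 the differences were -0.48, -0.51 and -0.42 with limma adjusted p of 0.00457, 0.00712 and 0.00915. All 3 calls were lost when any single +/+ or R270H/R270H library was left out. They were also lost when the 2 genotypes were fitted alone (limma adjusted p=0.124, 0.0923 and 0.104 in the same order). The fit of the 2 genotypes called 121 of all 10042 genes lower, against 1107 with all 6 libraries. The fits without a library also called far fewer genes, so the loss cannot set these 3 apart from others.

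Over the 35 genes, both R270H/R270H libraries were below both flox/flox libraries for 19 and above for 2 (Psmc6 and Psmd1), against 31.2% and 36.8% of all genes tested. The 19 held 6 of 8 lid, 4 of 7 beta, 3 of 7 alpha and 3 of 6 ATPase subunits. The median log2 difference was -0.31 for core and -0.16 for regulatory subunits, against 0.03 for all genes tested, except that scaling the libraries to an equal sum of rpkm turned the regulatory median to 0.064, where it moved that of all genes to 0.23. Without flox/flox replicate 1 the medians were -0.01 and -0.07. That fit called 2 genes higher (Psma4 and Psma6) and 8 lower (Psma2, Psmb4, Psmb5, Psmd3, Psmd6, Psmd8, Psmd9 and Psmd10), against 29.1% and 23.9% of all genes tested, so the share of lower calls was near that of the background. All comparisons with flox/flox use the same 2 libraries, and those with +/+ likewise, so the 3 sets of values are not independent of each other.

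The other lid subunits differed among themselves. Psmd12 was at 66.6 and 66.2 rpkm in +/+, 98.6 and 80.4 in flox/flox, and 80.5 and 79.1 in R270H/R270H. Psmd14 was at 119.7 and 121 rpkm in +/+, 149 and 121 in flox/flox, and 119 and 115 in R270H/R270H. Psmd11 was at 19.5 and 19.4 rpkm in +/+, 24.0 and 22.9 in flox/flox, and 21.9 and 20.4 in R270H/R270H. Psmd12 and Psmd11 thus had both altered genotypes above +/+, whereas for the deubiquitinase Psmd14 both R270H/R270H libraries lay below both +/+ libraries. Psmd6 was at 62.4 and 59.9 rpkm in +/+, 106 and 77.5 in flox/flox, and 66.2 and 67.7 in R270H/R270H, and Psmd7 at 70.6 and 69.2, 91.5 and 77.3, and 73.8 and 69.8 rpkm. For Psmd6 the R270H/R270H libraries lay between the other groups, and for Psmd7 they overlapped with +/+. Psmc3ip, the gene that only shares the prefix, was at 8.59 and 8.67 rpkm in +/+, 13.4 and 7.73 in flox/flox, and 7.63 and 8.78 in R270H/R270H, with overlapping groups in all 3 comparisons.

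Of 45 other genes listed for the ubiquitin and proteasome pathway, 41 were in the table and 39 reached 4 rpkm in a library. The list had been made with earlier results of these data known. In R270H/R270H against +/+, limma over all 6 libraries called 2 of 39 higher and 2 lower, against 5.86% and 6.36% of all genes tested, which is near the background. The higher genes were Ufd1l (log2 difference 0.62, SE 0.12, limma adjusted p=0.0368) and Nploc4 (0.49, SE 0.10, limma adjusted p=0.0426), the cofactors with which the ATPase Vcp extracts ubiquitin-tagged proteins. Ufd1l was at 18.3 and 18.3 rpkm in +/+, 25.1 and 20.9 in flox/flox, and 29.6 and 27.6 in R270H/R270H. Among the lower genes was Nfe2l2. Leaving out any single +/+ or R270H/R270H library removed the calls of Ufd1l, Nploc4 and Nfe2l2. Such fits leave 1 library in a group and called few or no genes of the whole table. The loss therefore cannot set these genes apart from others.

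Nfe2l2, the oxidative stress factor, was at 142 and 159 rpkm in +/+, 52.9 and 77.9 in flox/flox, and 53.3 and 47.8 in R270H/R270H. It fell by 1.55 on the log2 scale in R270H/R270H (SE 0.20, limma adjusted p=0.0148) and by 1.21 in flox/flox (SE 0.20, limma adjusted p=0.0298). Leaving out any single +/+ or R270H/R270H library removed both calls, but such fits called few or no genes of the whole table. The fit of flox/flox and +/+ alone removed the second call. That fit called only 9 of all 10042 genes higher and 38 lower. Both altered genotypes were thus far below +/+ for this gene. Nfe2l1, which controls subunit genes, was at 39.0 and 42.4 rpkm in +/+, 22.6 and 38.8 in flox/flox, and 36.4 and 37.7 in R270H/R270H, and was not called in any comparison (limma adjusted p=0.764, 0.263 and 0.373). Its log2 difference was -0.13 (SE 0.25) in R270H/R270H and -0.44 (SE 0.25) in flox/flox against +/+.

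In flox/flox against +/+, 2 of 39 were called higher and 1, Nfe2l2, lower, against 4.38% and 6.90% of all genes tested. Adrm1, a ubiquitin receptor of the base whose symbol lies outside the prefix rule, was at 49.9 and 46.9 rpkm in +/+, 80.5 and 73.6 in flox/flox, and 43.0 and 53 in R270H/R270H (flox/flox against +/+ 0.66, SE 0.14, limma adjusted p=0.0418). Psmb10, the inducible counterpart of Psmb7, was at 10.2 and 8.60 rpkm in +/+, 19.7 and 17.6 in flox/flox, and 6.32 and 9.26 in R270H/R270H (0.92, SE 0.20, limma adjusted p=0.0456). Both were close in the flox/flox replicates and above all other libraries. The other inducible subunits were near the floor of the table, with Psmb8 at 1 to 2.78 rpkm and Psmb9 at 1 to 2.54 rpkm, and were not tested. Leaving out any single +/+ or R270H/R270H library removed the calls of Adrm1 and Psmb10. Such fits called few or no genes of the whole table higher in this comparison, so the loss cannot set these 2 apart from others.

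In R270H/R270H against flox/flox, 0 of 39 were called higher and 7 lower by limma, where 13.6% and 11.0% of all genes were, with 15 at an unadjusted p under 0.05, where 42.5% of all genes were. Besides Adrm1 (-0.68, SE 0.14, limma adjusted p=0.0264) and Psmb10 (-1.18, SE 0.20, limma adjusted p=0.0179), these included Psmg4, Usp14, Ubqln1 and Ubqln2. Psmg4, a chaperone of core assembly, was at 5.31 and 3.78 rpkm in +/+, 14.5 and 10.2 in flox/flox, and 1.00 and 2.85 in R270H/R270H, and fell by 2.25 (SE 0.37, limma adjusted p=0.0170). Its lower R270H/R270H value is at the floor of the table, so the size of this difference depends on the floor and the pseudocount. Usp14, a deubiquitinase that docks on the proteasome, fell by 0.40, and the shuttle factors Ubqln1 and Ubqln2, which carry ubiquitin-tagged proteins to it, fell by 0.46 and 0.78. Without flox/flox replicate 1, 5 of the 39 were called higher and 12 lower in this comparison, against 29.1% and 23.9% of all genes tested. Of 18 alternative settings, the calls of Adrm1, Psmb10, Psmg4, Usp14, Ubqln1 and Ubqln2 in this comparison were lost in 7, 6, 5, 11, 8 and 8, in that order. Leaving out any single +/+ or R270H/R270H library removed each of these 6 calls, except that Psmg4 kept its call without R270H/R270H replicate 2. The fit of the 2 genotypes alone removed all 6. All these fits called far fewer genes of the whole table than that of all 6 libraries, so the losses cannot set these genes apart from others.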

How the data were processed

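Poly(A) RNA of 6 organoid preparations, 2 per genotype, was sequenced as stranded Illumina libraries. Reads were aligned by the authors to mm10, and the deposited table holds the rpkm they computed with StrandNGS for 36172 rows. The version, annotation and filters are not given in the sources used here. The lowest value is 1, at which 23760 rows stand in all libraries, so lower values are unknown, and p-values measure the spread between 2 preparations a genotype.

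Groups followed the sample titles. Rows that reached 4 rpkm in any library (10042) were compared as log2(rpkm+1) with limma 3.58.1 in R 4.3.3 (lmFit, eBayes with trend=TRUE, no block), two-sided, with Benjamini-Hochberg adjustment over all rows at 0.05. Fold changes are on the log2(rpkm+1) scale, which understates low genes. The code was tested on simulated data. Tables and figures used Python 3.11.15, numpy 2.4.6, pandas 2.3.3 and matplotlib 3.10.9. Gene positions and promoters are from RefSeq (GRCm38.p6), and longest transcripts from GENCODE.

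The members, gene lists and tests were chosen with earlier results of these data known. Values in all libraries are given for the catalytic subunits, the ATPases, members called by limma, the highest and lowest member of each place and the 5 members of widest range, and other members were added after their values were seen. Other pathway genes were named when called, with Psmb8, Psmb9, Psmb10 and Nfe2l1. Results for 1 called pathway gene are left out here. Transcript length and the letters CTTCCG were looked at after seeing the data. Alternatives were other pseudocounts, filters, scalings and variance models, a replicate block and leaving out each library.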

Additional observations from a re-analysis of the deposited data

How the results depend on the processing

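With 18 alternatives per result, 184 of 216 values of the counts and medians stayed within their limits (a count equal or within 1.5 times, a median within the spread of replicates). A count of 0 that stayed 0 was within its limit, also in fits that called few genes of the whole table. The limit is wide where flox/flox is compared. The core median against +/+ counted as within it when it went from 0.43 to 0.19 without flox/flox replicate 1. This number is thus no measure of stability. Members called higher or lower in R270H/R270H against +/+ went from 0 and 0 to 12 and 2 in the fit of the 2 genotypes alone and with 1 weight per genotype. Calls over all genes went from 588 and 639 to 3136 and 2585, and to 3200 and 2787. With a library left out, calls over all genes also swung from few or none to many more, in each comparison. Member counts from those fits are therefore not listed here. The core median (0.08) was 0.17 after scaling to an equal sum of rpkm and 0.061 to 0.11 with a library left out. The regulatory median (0.14) was 0.12 after median-of-ratios scaling, 0.23 after equal-sum scaling and 0.14 to 0.20 with a library left out. Equal-sum scaling, chosen after seeing the data, moved the median of all genes to 0.11, -0.14 (flox/flox against +/+) and 0.23 (R270H/R270H against flox/flox). In flox/flox against +/+ it gave 2 higher calls, and leaving out libraries gave 0 to 33 higher, 0 to 1 lower and a regulatory median of 0.24 to 0.45. In R270H/R270H against flox/flox, 0 were called lower in the fit of the 2 genotypes, with weights and with the replicate block, 5 with the block when the R270H/R270H numbers were crossed, and 0 to 31 (higher 0 to 2) with a library left out. The regulatory median of -0.16 became 0.064 after equal-sum scaling. Beyond fewer libraries or another estimate of the spread, the cause was not tested.

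The replicate numbers come from the titles and the mice differ between genotypes, so same-numbered libraries share only a number. The correlations of their deviations were 0.12, -0.29 and -0.20. The replicate block moved the calls over all genes from 588 and 639 to 255 and 295, from 440 and 693 to 71 and 209, and from 1362 and 1107 to 668 and 488, and gave 0 calls among members in each comparison. Where an arm kept 1 library, that library was assumed to vary like the other groups. Of 306 values for the single genes called, 179 kept the call and 127 lost it, with no change of sign. Depth is unknown for flox/flox replicate 1, and values under 1 rpkm cannot be compared.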
